A study of Rattus norvegicus with 4 samples.

Results

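The inflammatory and growth cytokine genes described here are Il1a, Il1b, Il1rn, Il18, Tnf, Il15, Il6, Il10, Tgfb1 and Il16. They were taken as every probe set whose platform annotation gave 1 of these 10 symbols and no other. That gave 12 of 31042 probe sets once controls were set aside, with 2 each for Il1a and Tnf and 1 for each of the other 8 genes. The samples were AA4+ cells, labelled mast cells, taken at day 65 from female BioBreeding rats, out of the lymph nodes that drain the pancreas. The DRlyp/lyp group, titled DP and labelled diabetes-prone, carries the lyp allele on both chromosomes, and the DR+/+ group, titled DR and labelled diabetes-resistant, carries the wild-type allele. No treatment is named for either. The lyp allele disrupts Gimap5 and leaves rats with few peripheral T cells. In these samples, however, T cell markers had higher signal in the DRlyp/lyp pool, as given below. The Gimap5 signal differed by 0.16 on the log2 scale (adjusted p = 0.363, limma), an mRNA measure that cannot check the allele. The series describes 8 animals per group, 1 RNA pool per group and duplicate amplification and hybridisation, so that each group had 2 arrays of 1 pool.

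The p-values below compared 2 pools, and the spread behind them is that of repeated amplification and hybridisation, not of animals. In RNA from a mixed cell suspension, fewer cells of a type and less RNA per cell cannot be told apart. The deposited signal is in linear units, and the number of arrays limits its precision. A probe set was tested if it exceeded 28.4, the pooled median signal, on at least 2 of the 4 arrays. Values were floored at 6.8 before the log2 transformation, and log2 differences are DRlyp/lyp minus DR+/+ on that scale. A set was called at an adjusted p under 0.05 (limma, Benjamini-Hochberg over all 16047 tested probe sets).

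IL-1α and IL-1β bind the same receptor and start NF-kB and MAP kinase signalling, which TNF also activates through its own receptors. The product of Il1rn occupies the IL-1 receptor without signalling. IL-18 uses a related receptor and, like IL-1β, is made as a precursor that caspase-1 cuts. IL-15 supports NK cells and memory CD8+ T cells and is presented on the surface of the cells that make it. In lymph nodes these cytokines come from macrophages, dendritic cells, stromal cells and lymphocytes, and rodent mast cells can make several of them, TNF and IL-6 among them.

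Il1a, Il6 and Il15 had lower signal in the DRlyp/lyp pool, whereas Il1b had higher signal. Their promoters are shown because these genes moved in opposite directions, Il1a and Il1b among them, which lie close together on chromosome 3. Each is the 250 bases before the gene's start in the RefSeq table of GRCr8, written 5′ to 3′ on the gene's strand, with matches to 4 motifs in capitals. The windows are chr3:136990018-136990267 (minus strand) for Il1a, chr4:5894576-5894825 (minus strand) for Il6, chr19:42544456-42544705 (plus strand) for Il15 and chr3:137036582-137036831 (minus strand) for Il1b.
Il1a: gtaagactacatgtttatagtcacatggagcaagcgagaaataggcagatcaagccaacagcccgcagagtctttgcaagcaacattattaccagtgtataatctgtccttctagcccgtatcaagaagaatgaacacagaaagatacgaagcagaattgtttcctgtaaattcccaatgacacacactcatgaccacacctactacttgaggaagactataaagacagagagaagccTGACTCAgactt
Il6: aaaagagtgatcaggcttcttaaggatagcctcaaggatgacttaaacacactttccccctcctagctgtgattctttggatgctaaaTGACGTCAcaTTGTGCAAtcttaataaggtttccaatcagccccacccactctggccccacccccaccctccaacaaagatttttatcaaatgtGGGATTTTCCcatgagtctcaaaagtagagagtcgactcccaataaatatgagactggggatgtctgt
Il15: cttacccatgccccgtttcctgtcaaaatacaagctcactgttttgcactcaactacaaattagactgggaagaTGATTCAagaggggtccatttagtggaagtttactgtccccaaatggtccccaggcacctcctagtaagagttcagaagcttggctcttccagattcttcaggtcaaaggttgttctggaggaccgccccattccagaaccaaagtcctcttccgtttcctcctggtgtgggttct
Il1b: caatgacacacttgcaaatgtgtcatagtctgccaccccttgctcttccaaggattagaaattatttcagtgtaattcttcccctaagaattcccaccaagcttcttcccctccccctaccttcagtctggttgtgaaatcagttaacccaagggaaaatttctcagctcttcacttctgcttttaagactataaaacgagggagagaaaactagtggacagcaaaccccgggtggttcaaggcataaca

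The motifs, searched on both strands, were an NF-kB form, GGGNNTTNCC, the AP-1 form TGANTCA, the CRE TGACGTCA and a C/EBP form, TTGNNCAA. No match in any of the 9 member promoters of the table overlapped another. Il6 held 1 match each to the NF-kB, CRE and C/EBP forms. Il1a held an AP-1 match that began 12 bases before the start, and Il15 held one that began 176 bases before it. The Il1b window held none of the 4. Among 33469 promoters of this length, 4.36% held the NF-kB form, 6.34% the AP-1 form, 1.59% the CRE and 5.25% the C/EBP form. Of the 9 member promoters, 2 held the NF-kB form (Il6 and Il1rn), 3 the AP-1 form (Il1a, Il15 and Il16), 1 the CRE and 1 the C/EBP form. A match describes the letters only and shows no binding.

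Of the 12 cytokine probe sets, 8 were tested, 1 for each of 8 genes, with 2 calls of higher and 3 of lower signal for DRlyp/lyp. Calls were common in this comparison. Of all tested probe sets, 19.3% were called higher and 19.9% lower. The median log2 difference was -0.0023 over the 8 tested cytokine sets and -0.00052 over all tested sets. Both DRlyp/lyp arrays lay above both DR+/+ arrays for 4 of the 12 sets and below them for 6, and in the other 2 the arrays overlapped. Over all probe sets these shares were 29.9% above and 24.7% below. The 6 include the Tnf set 1387691_at, at the floor on all 4 arrays, whose order carries no measured difference. They also include the dim, untested Il1rn set. Of the tested sets, 7 exceeded the filter on all 4 arrays, and the Tgfb1 set did so only on the DRlyp/lyp arrays.

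**Figure D1:**
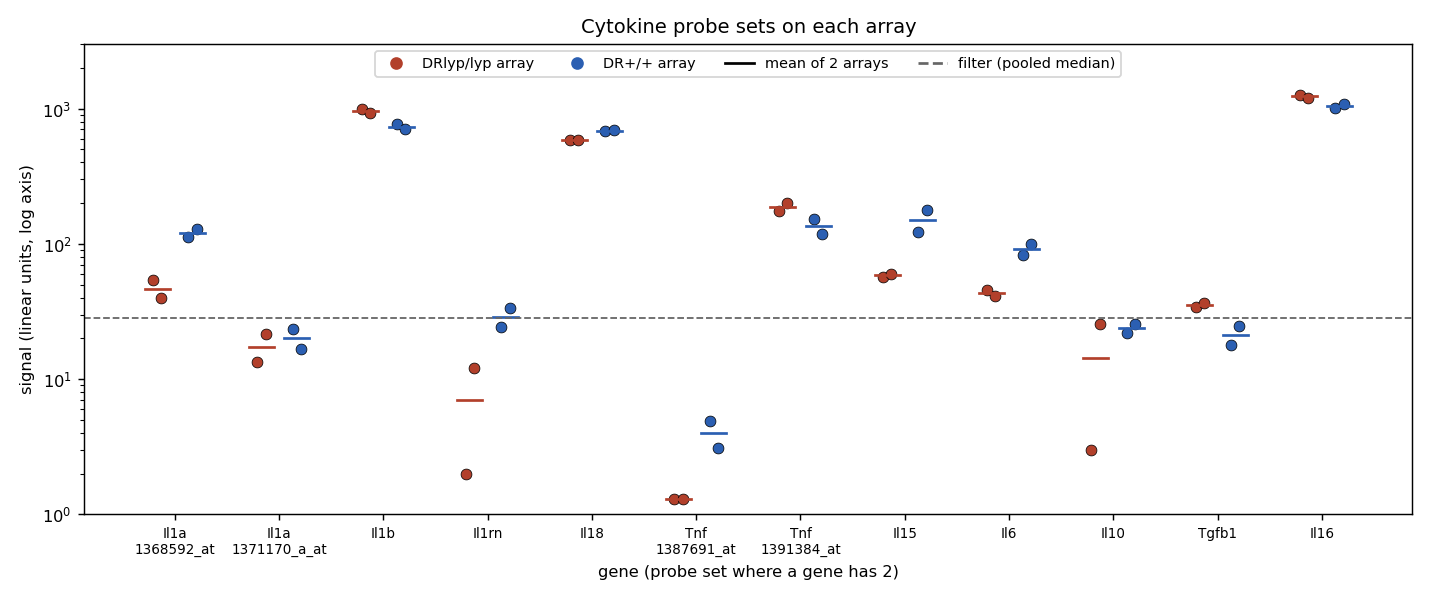
Signal of the 12 cytokine probe sets on each array, in linear units on a log axis, with DRlyp/lyp arrays left of DR+/+ arrays, a bar at the mean of 2 arrays and a dashed line at the filter of 28.4. The Il1a set 1368592_at, Il15 and Il6 sit lower in the DRlyp/lyp pool. The 2 Tnf sets differ in brightness, and set 1387691_at is at the floor on all 4 arrays, so its order carries no measured difference.

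Il1a, the agonist that can act without caspase-1, had the most negative log2 difference of the tested cytokines. Its set 1368592_at read 53.6 and 39.5 on the DRlyp/lyp arrays and 111.7 and 129.7 on the DR+/+ arrays. Both DRlyp/lyp arrays were lower than either DR+/+ array. The means were 46.5 ± 9.97 for DRlyp/lyp and 121 ± 12.7 for DR+/+ (SD, n = 2 each), a log2 difference of -1.39 (SE 0.256, adjusted p = 0.00123, limma) or 2.62-fold lower. The other Il1a set, 1371170_a_at, read 13.3 and 21.4 on the DRlyp/lyp arrays and 23.5 and 16.7 on the DR+/+ arrays. It lay below the filter on every array and its groups overlapped, so it was not tested and does not repeat the call.

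Il1b, the agonist released after cleavage by caspase-1, was higher in the DRlyp/lyp pool by a much smaller step. It read 999 and 930.3 on the DRlyp/lyp arrays and 763.5 and 709.6 on the DR+/+ arrays, with no overlap. The means were 965 ± 48.6 for DRlyp/lyp and 737 ± 38.1 for DR+/+ (SD, n = 2 each), a log2 difference of 0.39 (SE 0.0907, adjusted p = 0.00525, limma) or 1.31-fold. Without DRlyp/lyp replicate 1 the difference was 0.34 and not past the threshold (adjusted p = 0.0933). With each array centred on its median it was 0.28 (adjusted p = 0.0585), also not past the threshold.

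Il1rn, which encodes the IL-1 receptor antagonist, read 2 and 12 on the DRlyp/lyp arrays and 24.1 and 33.3 on the DR+/+ arrays. Both DRlyp/lyp arrays were below both DR+/+ arrays, but only 1 DR+/+ array exceeded the filter, so the set was not tested. A signal this dim is not shown to be above background, and its log2 difference ranged from -2.53 with a lower floor to -0.47 with an offset of 50.

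Il18, the IL-1 family cytokine that induces interferon-γ, read 581.1 and 584.1 on the DRlyp/lyp arrays and 683.8 and 691.4 on the DR+/+ arrays. The arrays of each pool lay close together and the pools did not overlap. The log2 difference was -0.24 (95% interval -0.45 to -0.032) and did not pass the threshold after adjustment (adjusted p = 0.065, limma). It passed with centring on the array median (-0.35, adjusted p = 0.0304), with a stricter filter, the 75th percentile (adjusted p = 0.0468), and without a filter (adjusted p = 0.0425).

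Tnf, the founding ligand of the TNF family, was represented by 2 sets that did not behave alike. The set 1391384_at, for which the annotation gives no accession, read 173.8 and 198.8 on the DRlyp/lyp arrays and 152.8 and 119.1 on the DR+/+ arrays. The DRlyp/lyp arrays were the higher pair, with a log2 difference of 0.46 (95% interval 0.056 to 0.87) that missed the threshold (adjusted p = 0.0683, limma). It passed without DR+/+ replicate 1 (0.64, adjusted p = 0.029), with quantile normalization (0.51, adjusted p = 0.0486), with the stricter filter (adjusted p = 0.0492) and with the replicate number as a block (adjusted p = 0.0403). The set 1387691_at, annotated to the RefSeq transcript, read 1.3 on both DRlyp/lyp arrays and 4.9 and 3.1 on the DR+/+ arrays. It was at the floor on all 4 arrays, so its order carries no measured difference. Which of the 2 sets reports Tnf mRNA was not settled here.

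Il15, the common gamma chain cytokine, read 57.1 and 59.8 on the DRlyp/lyp arrays and 121.9 and 177.1 on the DR+/+ arrays. The DRlyp/lyp arrays were close together and below both DR+/+ arrays, which differed more from each other. The means were 58.5 ± 1.91 for DRlyp/lyp and 149.5 ± 39 for DR+/+ (SD, n = 2 each), a log2 difference of -1.33 (SE 0.24, adjusted p = 0.00106, limma) or 2.51-fold lower. It passed the threshold when any 1 array was left out, with a difference between -1.60 and -1.06.

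Il6, which signals through the Il6st chain and is made by many stimulated cells, was lower in the DRlyp/lyp pool. It read 45.2 and 41.3 on the DRlyp/lyp arrays and 82.7 and 100.1 on the DR+/+ arrays, without overlap. The log2 difference was -1.07 (SE 0.263, adjusted p = 0.00696, limma) or 2.11-fold lower, with means of 43.2 ± 2.76 for DRlyp/lyp and 91.4 ± 12.3 for DR+/+ (SD, n = 2 each). Without DRlyp/lyp replicate 2 it was -1.01 and not past the threshold (adjusted p = 0.0595).

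The calls for Il1a, Il15 and Il6, all of modest signal, were lost when no filter was used (adjusted p of 0.0913, 0.105 and 0.0869), a setting under which calls over the whole table dropped to 844 higher and 827 lower. Il10 and Tgfb1 encode cytokines that restrain immune responses. Il10 read 3 and 25.5 on the DRlyp/lyp arrays and 21.9 and 25.7 on the DR+/+ arrays. It was below the filter on every array, the groups overlapped and it was not tested. Tgfb1 read 34.3 and 36.7 on the DRlyp/lyp arrays and 17.8 and 24.7 on the DR+/+ arrays. Both DR+/+ arrays were below the filter. The DRlyp/lyp mean over the filter value gives 1.25-fold, a bound that leaves out the spread between arrays. The fitted log2 difference of 0.76, which depends on the floor, was not past the threshold (95% interval -0.12 to 1.64, adjusted p = 0.157, limma). It was 0.26 with an offset of 50.

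Il16, whose precursor is cut by caspase-3 into a chemoattractant for CD4+ cells, read 1259.5 and 1198.8 on the DRlyp/lyp arrays and 1010.1 and 1079.9 on the DR+/+ arrays. The DRlyp/lyp arrays were higher without overlap, by 1.18-fold (log2 difference 0.23, SE 0.0809, adjusted p = 0.0377, limma). Leaving out 1 array ended the call in 3 cases, at an adjusted p of 0.247 for DRlyp/lyp replicate 1, 0.116 for DRlyp/lyp replicate 2 and 0.124 for DR+/+ replicate 1. It was also lost with quantile normalization (0.21, adjusted p = 0.0553) and with centring on the array median (0.12, adjusted p = 0.396).

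**Figure D2:**
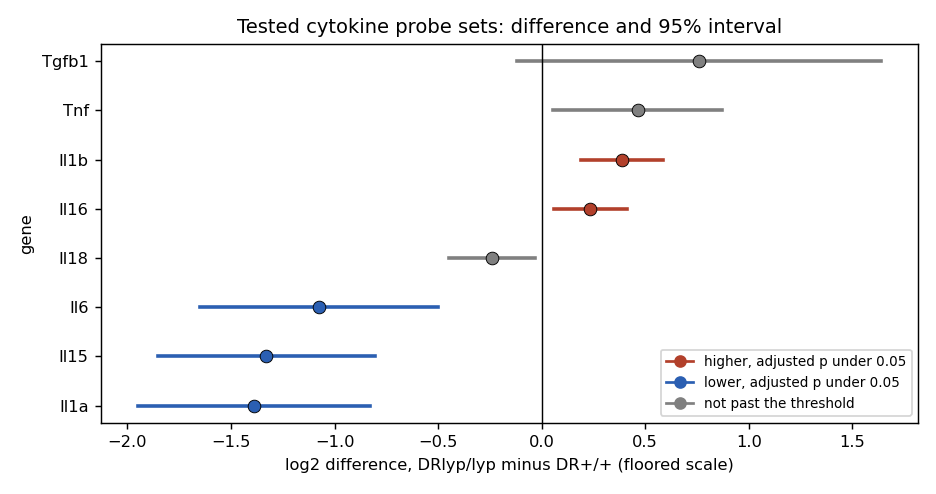
Log2 difference, DRlyp/lyp minus DR+/+, of the 8 tested cytokine probe sets with its 95% interval from limma (Tnf is set 1391384_at). Il1a (-1.39), Il15 (-1.33) and Il6 (-1.07) were called lower, Il1b (0.39) and Il16 (0.23) higher, and the other 3 did not pass the threshold. For Tgfb1 both DR+/+ arrays were below the filter, so its size is not measured on both sides.

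In order of their log2 difference the 7 tested cytokines above the filter on all 4 arrays ran from Tnf (0.46) through Il1b, Il16, Il18 and Il6 to Il15 and Il1a. The intervals of neighbours in this order overlapped except between Il16 and Il18 and between Il18 and Il6. The 3 genes called lower had DR+/+ means of 91.4 to 149.5, whereas the 2 called higher had signals above 700 in both pools. Signals of different probe sets are not on 1 scale, so this describes brightness on the array and not transcript abundance.

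The receptors, processing enzymes, signalling and target genes of these cytokines were grouped by role in 8 lists with 176 genes, of which 154 had a probe set and 123 were tested with 1 set per gene. Of these 123, the DRlyp/lyp pool had 16 called higher (13%) and 45 called lower (36.6%), against 20.9% higher and 21.1% lower over the 9344 genes tested. The median log2 difference was -0.13 in the lists and 0.00033 over all genes. The lists were chosen with earlier results of these data known, so these shares describe the lists and are not an independent test. Without DRlyp/lyp replicate 1 the counts were 8 and 31, and without DRlyp/lyp replicate 2 they were 7 and 35. The rule for named genes picked 39 genes from the lists, of which 22 kept their call whichever array was left out. The list genes named below are among those 22 unless a value without an array is given, and the receptors were named for their role after their values were seen.

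Of 21 tested genes around the IL-1 and IL-18 receptors, which included no IL-18 receptor chain, 2 were called higher (9.52%) and 6 lower (28.6%). The share of lower calls was near that of all genes, and the list median was -0.08. Without either DRlyp/lyp array in turn the counts were 1 and 6. Irak3, a kinase-like protein that restrains IL-1 receptor signalling, read 294.2 and 283.1 on the DRlyp/lyp arrays and 822.3 and 803.5 on the DR+/+ arrays (2.82-fold lower, adjusted p = 1.14e-06, limma). Il18bp, the secreted protein that binds and neutralises IL-18, read 244.3 and 246.1 in DRlyp/lyp against 490 and 603 in DR+/+ (2.22-fold lower, adjusted p = 4.89e-05). Both products act against IL-1 family cytokines, but the lower calls of this list were not particular to such genes. The decoy receptor Il1r2 was not called, and Casp1, which cuts the IL-1β precursor, was called lower, as given below. Irak2, a kinase of the receptor complex, was 1.92-fold lower. Il1rl1, the IL-33 receptor, was the gene with the largest difference in the list, at 119.9 and 113.8 on the DRlyp/lyp arrays and 10.3 and 12.1 on the DR+/+ arrays, or at least 4.11-fold higher, because both DR+/+ arrays were below the filter.

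The IL-1 receptor chains themselves did not pass the threshold. Il1r1, the signalling receptor, read 270.7 and 273.4 on the DRlyp/lyp arrays and 340.2 and 346.3 on the DR+/+ arrays (log2 difference -0.34, adjusted p = 0.0526, limma), and passed with centring on the array median (-0.45, adjusted p = 0.0249), with the replicate number as a block (adjusted p = 0.0491), with the stricter filter (adjusted p = 0.0419) and without a filter (adjusted p = 0.0389). Il1r2, the decoy receptor, differed by 0.70 (adjusted p = 0.151), and by 1.21 with a call (adjusted p = 0.0234) without DR+/+ replicate 1. Il1rap, the accessory chain, differed by 0.46 (adjusted p = 0.196). Casp1, which cuts the IL-1β and IL-18 precursors, was lower at 1317 ± 31.5 in DRlyp/lyp against 1702 ± 44.5 in DR+/+ (SD, n = 2 each, log2 difference -0.37, adjusted p = 0.00168). Of the genes for these precursors, Il1b was called higher and Il18 was not called.

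In the list of TNF shedding, receptors and signalling 3 of 22 tested genes were called higher and 10 lower (45.5%), with a median of -0.31. Without either DRlyp/lyp array in turn the counts were 1 and 6. Traf5, an adaptor of TNF family receptors, read 406.9 and 402.9 on the DRlyp/lyp arrays and 848.8 and 779.1 on the DR+/+ arrays (2.01-fold lower, adjusted p = 1.78e-05, limma). Rhbdf2, which carries the TNF-shedding enzyme to the cell surface, was 1.96-fold lower. Litaf, named for its induction of TNF by lipopolysaccharide, was higher at 2547.3 and 2530.4 in DRlyp/lyp against 1913.6 and 1789.7 in DR+/+ (1.37-fold, adjusted p = 0.000217). The TNF receptors differed by 0.34 for Tnfrsf1a (adjusted p = 0.0662) and -0.36 for Tnfrsf1b (adjusted p = 0.13), neither past the threshold. Tnfrsf1a passed it without DR+/+ replicate 2 (0.46, adjusted p = 0.0269), with quantile normalization (adjusted p = 0.0454) and with the replicate number as a block (adjusted p = 0.0437).

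Of 10 tested genes of the IL-15 receptor and its JAK-STAT5 signalling, 3 were called higher and 3 lower (30% each), with a median of -0.06. Without DRlyp/lyp replicate 1 the counts were 2 and 1. Il15ra, the chain specific to the IL-15 receptor, was not among the tested genes. Il2rg, the common gamma chain, read 1785 and 2019.8 on the DRlyp/lyp arrays and 3214.1 and 3528.4 on the DR+/+ arrays (1.77-fold lower, adjusted p = 8.18e-06, limma), whereas Il2rb, the chain shared by IL-2 and IL-15, differed by -0.13 (adjusted p = 0.472). Il7r, the IL-7 receptor chain that pairs with Il2rg, was 2.93-fold higher. Cish, a STAT5-induced feedback inhibitor, read 171.5 and 197 in DRlyp/lyp against 53.7 and 41.5 in DR+/+ (3.89-fold higher, adjusted p = 5.21e-05). Il2ra, the IL-2 receptor alpha chain, was near the filter at 44.6 and 41.7 in DRlyp/lyp against 13.9 and 2.1 in DR+/+ (at least 1.52-fold higher), and it lost its call without DRlyp/lyp replicate 1 (adjusted p = 0.0799) and without replicate 2 (adjusted p = 0.0603). Socs2, another STAT5-induced inhibitor, was called lower at 6.1 and 26.4 in DRlyp/lyp against 35.1 and 72.1 in DR+/+ (at least 1.89-fold), and lost its call without DRlyp/lyp replicate 1 (-0.93, adjusted p = 0.239) and without DR+/+ replicate 2 (-1.39, adjusted p = 0.206). T cells carry Il7r, and T cell markers were also higher in this pool, as given below. Their part in these differences was not tested.

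For IL-6 and IL-10, 1 of 12 tested receptor and STAT3 pathway genes was called higher and 3 lower (25%), with a median of 0.03. The counts were 0 and 2 without either DRlyp/lyp array in turn, and 1 and 5 without DR+/+ replicate 2. Il6r, the ligand-binding IL-6 receptor, read 326.5 and 344.3 on the DRlyp/lyp arrays and 528 and 511.2 on the DR+/+ arrays (1.55-fold lower, adjusted p = 0.000977, limma). Cebpb, a transcription factor that IL-6 induces, was 1.86-fold lower. Il6st, the signalling chain, was called higher at 514.4 and 525.8 in DRlyp/lyp against 421.7 and 304.7 in DR+/+ (1.45-fold), but the call was lost without either DRlyp/lyp array (adjusted p of 0.0942 without replicate 1 and 0.108 without replicate 2) and without DR+/+ replicate 2 (0.30, adjusted p = 0.0611). The 3 further sets of Il6st showed no call, 2 of them tested. The IL-10 receptor chains Il10ra (0.11, adjusted p = 0.368) and Il10rb (-0.23, adjusted p = 0.0563) did not pass. Il10rb passed without DR+/+ replicate 2 (-0.31, adjusted p = 0.0283), with centring on the array median (-0.34, adjusted p = 0.0196), with quantile normalization (adjusted p = 0.0443), with the stricter filter (adjusted p = 0.0409) and with the replicate number as a block (adjusted p = 0.0266).

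Around TGF-β, 2 of 18 tested genes were called higher and 4 lower (22.2%), with a median of -0.10. Only 1 was called higher without DRlyp/lyp replicate 1, DRlyp/lyp replicate 2 or DR+/+ replicate 2. Nrros, which tethers latent TGF-β on myeloid cells, was higher at 3143.5 and 3260 on the DRlyp/lyp arrays against 2277.4 and 2196 on the DR+/+ arrays (1.43-fold, adjusted p = 4.94e-05, limma). Tgfbr1, the signalling receptor, was lower at 1273 ± 87.4 in DRlyp/lyp against 1688 ± 15.6 in DR+/+ (SD, n = 2 each, log2 difference -0.41, adjusted p = 0.00132). The other receptor chain, Tgfbr2, was not among the tested genes. Bambi, a decoy receptor, was lower by at least 2.25-fold, with both DRlyp/lyp arrays below the filter. Of the IL-16 list only Cd4, a receptor for IL-16, and Cd9 were tested, and both were called lower. Cd4 passed the filter only through the DR+/+ arrays, at 20.7 and 10.6 in DRlyp/lyp against 43.7 and 50.3 in DR+/+. It lost its call without DRlyp/lyp replicate 2 (-1.18, adjusted p = 0.0959) and DR+/+ replicate 2 (-1.56, adjusted p = 0.061), and Cd9 without DRlyp/lyp replicate 1 (-0.62, adjusted p = 0.0847).

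**Figure D3:**
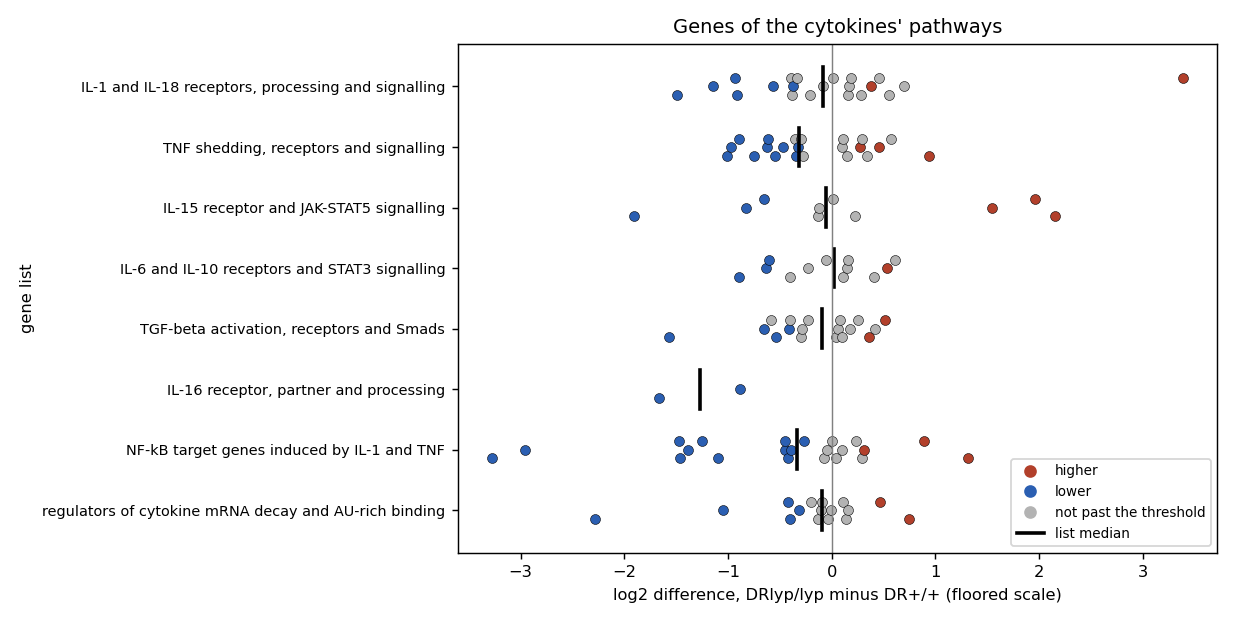
Log2 difference, DRlyp/lyp minus DR+/+, of each tested gene in the 8 lists, with red for called higher, blue for called lower, grey for neither and a black bar at the list median. The NF-kB target and TNF lists have medians of -0.33 and -0.31.

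Of 22 tested NF-kB target genes that IL-1 and TNF induce, 12 were called lower (54.5%) and 3 higher, with a median of -0.33. On the floored scale the largest differences were those of the neutrophil chemokines Cxcl2 and Cxcl1. Cxcl2 read 20.4 and 30.8 in DRlyp/lyp against 272.3 and 215.5 in DR+/+, with 1 DRlyp/lyp array below the filter. Its log2 difference of -3.27 ranged from -3.38 to -1.96 over the other settings with all arrays, so its size is uncertain. Cxcl1, at 22.2 and 2.6 in DRlyp/lyp against 109.5 and 83.4 in DR+/+, passed the filter only through the DR+/+ arrays. It was at least 3.4-fold lower. The log2 difference of Cxcl1 ranged from -3.65 to -1.24 over the same settings, so its size and rank are uncertain too. Its call was lost without a filter (adjusted p = 0.175, limma). Nfkbiz, a nuclear IκB protein needed for Il6 induction in mouse macrophages, read 389.5 and 405.1 on the DRlyp/lyp arrays and 1133.9 and 1070.8 on the DR+/+ arrays (2.77-fold lower, adjusted p = 6.11e-07, limma). Among the 3 higher were Tnip1, an inhibitor of NF-kB signalling (2.49-fold), and the chemokine Ccl5 (1.24-fold), whose difference of 0.20 with centring on the array median was not past the threshold (adjusted p = 0.0592).

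Proteins that set the stability of cytokine mRNA were the last group, with 2 of 16 tested genes called higher and 5 lower (31.2%) and a median of -0.10. The counts were 1 and 2 without DRlyp/lyp replicate 1, 0 and 5 without DRlyp/lyp replicate 2 and 3 and 3 without DR+/+ replicate 1. Zfp36, which binds AU-rich elements of Tnf and other cytokine transcripts and speeds their decay, read 299.7 and 276.2 on the DRlyp/lyp arrays and 1375.9 and 1423.7 on the DR+/+ arrays (4.86-fold lower, adjusted p = 1.83e-08, limma). Dusp1, a phosphatase that switches off the p38 and JNK kinases, read 1201.3 and 1093.3 in DRlyp/lyp against 2210.8 and 2532.1 in DR+/+ (2.06-fold lower, adjusted p = 3.06e-06). The related Zfp36l1 and Zfp36l2 differed by -0.09 and -0.20 and did not pass (adjusted p of 0.218 and 0.166). They were named after their values were seen.

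Markers of other cell types differed between the pools, and with 1 pool per group these differences accompany every cytokine value above. Of the mast cell markers tested, 2 of 10 were called higher and 3 lower, with a summed signal of 2872 to 2931 on the DRlyp/lyp arrays and 1932 to 2013 on the DR+/+ arrays. Without Mcpt1, the brightest, the other 9 summed to 1266 to 1270 in DRlyp/lyp and 1277 to 1345 in DR+/+. Called higher were Mcpt1 (2.47-fold) and Fcer1a (1.81-fold), and called lower were Tpsab1 (3.65-fold), Tpsb2 (2.9-fold) and Hpgds (1.5-fold). The Fcer1a call was lost without a filter (adjusted p = 0.382, limma) and without an intensity trend (adjusted p = 0.137). Fcer1a read 107.5 on both DRlyp/lyp arrays and 82.8 and 42.8 on the DR+/+ arrays. Its log2 difference was 0.85 with all arrays and 0.38 without DR+/+ replicate 2, so its size rests largely on that array. Cpa3, Cma1 and Ms4a2 were not called. Kit stayed at 11.3 or below on all 4 arrays. Macrophage and monocyte markers summed to 20036 to 20142 in DRlyp/lyp and 21504 to 22064 in DR+/+, with 3 of 15 called higher, Cd68 among them (1.41-fold), and 9 lower, C1qb among them (2.87-fold lower), and a list median of -0.68. Without Lyz2, the brightest, the other 14 summed to 9347 to 9577 in DRlyp/lyp and 14126 to 14937 in DR+/+. T cell markers summed to 11424 to 11475 in DRlyp/lyp and 2498 to 2757 in DR+/+. Of these, 14 of 14 were called higher, Cd3e among them (10.6-fold). The B cell sums were 13035 to 13815 in DRlyp/lyp and 17207 to 18452 in DR+/+. Among the 10 B cell markers, 0 were called higher and 6 lower, Cd79b among them (3.28-fold lower).

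Dendritic cell markers summed to 6806 to 7052 on the DRlyp/lyp arrays and 5879 to 6043 on the DR+/+ arrays, with 4 of 7 called higher and 1 lower. For neutrophil markers the sums were 3157 to 3245 in DRlyp/lyp and 1710 to 2037 in DR+/+, with 3 of 6 called higher and 1 lower. Exocrine pancreas markers summed to 10775 to 11102 in DRlyp/lyp and 278 to 286 in DR+/+. Among them 16 of 16 were called higher, Prss1 by 42.2-fold, and 11 were below the filter on both DR+/+ arrays. Endothelial and stromal markers summed to 3054 to 3162 in DRlyp/lyp and 1692 to 1792 in DR+/+, with 3 of 7 called higher and 2 lower. Without Fn1, the brightest, the other 6 summed to 727 to 732 in DRlyp/lyp and 870.2 to 901 in DR+/+. Col1a2 and Dcn were at the floor on every array. The log2 difference between the 3′ and 5′ control sets of beta-actin averaged 4.49 in the DRlyp/lyp pool and 3.05 in the DR+/+ pool. The part of these cell type and RNA differences in the cytokine values was not tested.

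**Figure D4:**
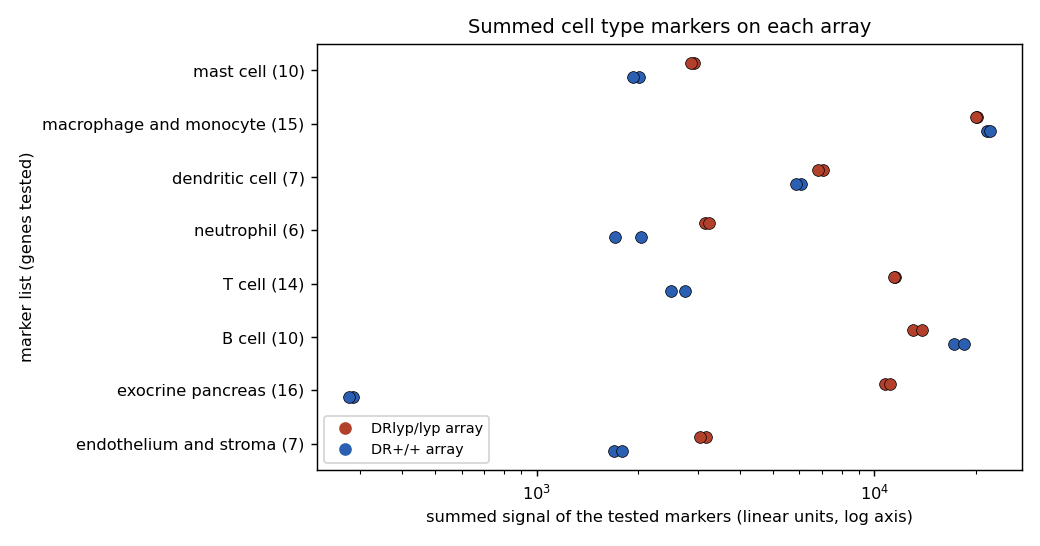
Summed signal of the tested markers of each cell type on each array, in linear units on a log axis, with DRlyp/lyp arrays drawn above DR+/+ arrays and the number of genes in brackets. T cell sums are 11424 to 11475 in the DRlyp/lyp pool and 2498 to 2757 in the DR+/+ pool. The macrophage and monocyte sums include Lyz2, without which they are 9347 to 9577 in DRlyp/lyp and 14126 to 14937 in DR+/+.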

How the data were processed

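Per the series' design text, RNA of AA4+ cells (8 animals per pool, about 50 ng) was amplified in 2 cycles and hybridised to an Affymetrix rat genome array, with 2 arrays per pool. What the authors deposited is an intensity per probe set and array, in linear units. Which program and scaling made it is not given in the sources used here. Its 2% trimmed mean was 150.1 on every array. Groups and replicate numbers came from the sample titles, with DP read as DRlyp/lyp and DR as DR+/+ from the descriptions.

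Of 31099 probe sets, 57 controls were left out. A floor of 6.8 (the 25th percentile over all arrays) preceded the log2 step. Sets exceeding 28.4, the median over all arrays, on 2 or more of them were tested with limma 3.58.1 in R 4.3.3 (lmFit, eBayes with an intensity trend, two-sided, 2 residual degrees of freedom), adjusted by Benjamini-Hochberg over all tested sets. In a pool with both arrays below the filter, a fold is the other pool's mean over 28.4. It is a bound that leaves out the spread between arrays. A gene outside the 12 cytokine sets was represented by its tested set with the highest mean log2 signal.

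Symbols came from the platform annotation of the array, in which 20826 sets had 1 symbol, 436 several and 9780 none. The RefSeq table of GRCr8 held 20758 of them by Entrez number and changed 0 symbols. Promoters came from RefSeq (GRCr8) and matched 9 of the 10 genes. The members and gene lists were chosen with earlier results of these data known. Named were all cytokine sets, per list up to 3 genes called in each direction by absolute difference without overlap of arrays (or the brightest), and the markers Kit, Fcer1a, Ms4a2, Cpa3, Cma1, Cd3e, Cd79b, C1qb, Cd68 and Prss1. The test was run on simulated arrays with independent noise of the fitted spread, without a filter or the floor used here. That check does not cover the floor, the filter or the use of 1 pool per group. Alternatives were centring on the array median, quantile normalization, other filters and floors, an offset, a replicate block, no trend, a 2-fold minimum, averaging a gene's sets and leaving out each array. Marker sums without the brightest marker were added after seeing the data. Python 3.11.15 with matplotlib 3.10.9 drew the figures.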

Additional observations from a re-analysis of the deposited data

How the results depend on the processing

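Under all alternatives run, Il1a, Il15 and Il6 stayed lower and Il1b and Il16 higher in direction. Where tested, Il1a and Il15 lost their calls only without a filter. Against 2 cytokine sets called higher and 3 lower, no filter gave 0 and 1, the 1 being Il18. The filter at the 75th percentile gave 3 and 1, again with Il18 as the lower one, because Il1a, Il15, Il6 and Tgfb1 were then not tested. The number called higher was 0 with centring on the array median, 0 with no intensity trend and 0 with a 2-fold minimum. Leaving out each array gave 0 to 2 higher and 2 to 3 lower.

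Over all probe sets, 3103 were called higher and 3196 lower. No filter gave 844 and 827, no intensity trend 1937 and 2127, and a 2-fold minimum 974 and 951. Leaving out each array gave 1581 to 2985 and 1873 to 2811, and the counts were lowest without DRlyp/lyp replicate 1. With centring on the array median the median difference of all tested sets was -0.11 and 36.1% of calls were higher, against 49.3% with the deposited scaling. For the genes of the 8 lists (16 higher, 45 lower), no filter gave 4 and 15, no intensity trend 7 and 27, a 2-fold minimum 5 and 15, and leaving out each array 7 to 18 and 31 to 42.

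With the replicate number as a block, 3 cytokine sets were called higher and 3 lower, the added one being Tnf set 1391384_at (adjusted p = 0.0403), and 3490 and 3546 sets were called in all. Replicate differences correlated at 0.043 between the pools. With 2 pairs this cannot show whether arrays with the same number shared anything else. Casp1 and Tgfbr1 lost their calls without a filter (adjusted p of 0.0527 and 0.0872) and without an intensity trend (0.0797 and 0.0738). Il1b and Il16 did so too, at 0.0957 and 0.148 without a filter and 0.083 and 0.205 without a trend. Of the 39 list genes named by rule, 27 lost their call without a filter, 14 without an intensity trend and 5 with centring. Signs reversed only among values without a call, namely Cma1 with quantile normalization (0.012), and, over arrays left out in turn, Cma1 (-0.11 to 0.079), Ms4a2 (-0.31 to 0.13) and Il2rb (-0.26 to 0.00083), and Il10ra with centring (-0.0059). Il10 and the second Il1a set, both dim and untested, changed sign when some arrays were left out. Signals near or below 28.4 limit Il1rn, Il10, Tgfb1 and the dim sets of Il1a and Tnf.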
